A study of Mus musculus with 35 samples.

Results

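Rosiglitazone (ROSI) activates PPARG, the nuclear receptor that drives fat cell formation. The comparison described here set cultures of mouse inguinal white fat progenitors grown with ROSI for 7 days against cultures harvested untreated at day 3. The design text of the study describes the earlier cultures as dividing and not yet mature. The 17 arrays of these 2 groups were chosen by their treatment and time labels out of 35 arrays in the series. The ROSI group held 9 arrays (5 SV129 and 4 C57BL/6J) and the day 3 group held 8 (4 SV129 and 4 C57BL/6J). Because drug and time differed together between them, the 8 untreated day 7 arrays (4 of each strain) were used to separate what was gained with the drug from what untreated cultures also gained or lost. ROSI was given at 1 uM from the first day of culture. ROSI cultures at day 3 were not analysed here, so every rise or fall with ROSI is relative to untreated day 3 cultures. The treatment note in the labels names both drugs of the study throughout, and group membership here follows the separate treatment field of each culture. The cultures were primary cells of 2 inbred strains and hold whatever other cells came with the progenitors. The labels do not say which cultures came from separate mice, so the p-values measure the spread between cultures.

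A white fat cell matures by building a lipid droplet and the enzymes that take up, store and release fatty acids, while it leaves the cell cycle and reduces its fibrous matrix. PPARG pairs with a retinoid X receptor to switch on much of that programme. Agonists such as ROSI also raise mitochondrial genes and, in some white depots, genes known from brown fat, which burns fatty acids for heat through the mitochondrial protein UCP1. In bulk RNA, fewer cells of a type and less RNA per cell cannot be told apart.

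The values were log2 signals of 17958 transcript clusters (sets of exon probes read as 1 gene), of which 15621 carried 1 gene symbol. Array medians ran between 8.04 and 8.22 over the 25 arrays of the 3 groups. The first principal component of these arrays carried 54.6% of the variance and the second 14.1%. Along the first, 7 ROSI arrays lay between 29.3 and 41.24, SV129 ROSI replicate 6 lay at 7.97 and SV129 ROSI replicate 1 at -8.81. Untreated day 7 arrays lay between -18.12 and -11.18, and day 3 arrays between -24.54 and -11.41. SV129 ROSI replicate 1 therefore sat beside the untreated arrays although its label gives the drug. On the second component, SV129 untreated day 7 replicates 5 and 6 stood apart at -28.81 and -27.46. Some counts and gene results that rest on these arrays are given with and without them.

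**Figure D1:**
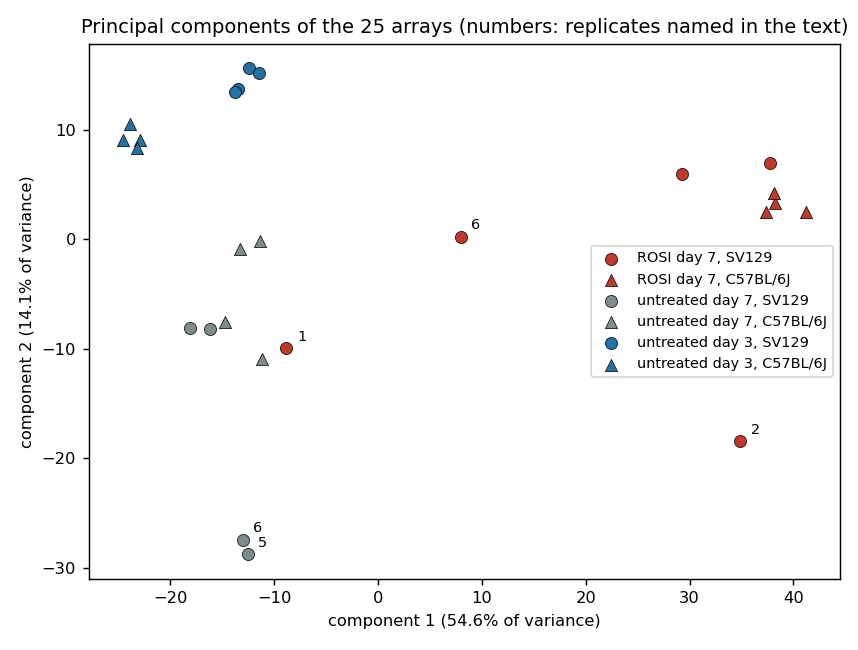
Principal components of the 25 arrays, computed on the log2 signals, with component 1 on the horizontal axis (54.6% of variance) and component 2 on the vertical axis (14.1%). Each point is 1 array, red for ROSI day 7, grey for untreated day 7 and blue for day 3, with circles for SV129 and triangles for C57BL/6J. Of the numbered arrays, ROSI replicates 1 and 6 lie between the groups at -8.81 and 7.97 on component 1.

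Relative to day 3, ROSI cultures had 4088 transcript clusters higher (22.8% of those tested) and 2393 lower (13.3%) at an adjusted p under 0.01 (limma with strain as a covariate, Benjamini-Hochberg adjustment). All 6481 called clusters (36.1%) moved the same way in both strains. The calls came from a test that pooled the strains, so this agreement of signs was largely built in. Tested alone, SV129 gave 191 higher and 151 lower, and C57BL/6J gave 3889 and 2855. In 5393 of the 6481 the change was larger in C57BL/6J, and this held for 4453 of the same clusters without SV129 ROSI replicates 1 and 6. The median change over all clusters was 0.03 on the log2 scale. Higher calls made up 63.1% of all calls as deposited, 46.2% after quantile normalization (3113 higher and 3629 lower) and 45.7% after centring each array on its median (3050 higher and 3630 lower), so the balance of directions depended on the scaling. The values of the 2 groups did not overlap at all in 2113 clusters (11.8%). Without SV129 ROSI replicates 1 and 6 the counts were 4699 higher (26.2%) and 3004 lower (16.7%). Untreated cultures at day 7 had 1740 clusters higher than day 3 (9.69%) and 1005 lower (5.6%).

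Clusters were sorted by both courses. A cluster counted as gained with the drug alone if it was higher with ROSI than at day 3 and than in untreated day 7 cultures, with the 95% interval of the untreated change inside 0.5 log2 (1.41-fold) of no change. This held for 2345 clusters (13.1% of those tested). Another 1020 (5.68%) were gained in both courses, 1146 (6.38%) were lost with the drug alone and 697 (3.88%) were lost in both. Scaling moved 2 of these numbers by over 1.5 times: the class lost with the drug alone held 1949 clusters after quantile normalization and 1853 after median centring, and 664 were gained in both courses after median centring. Within SV129 alone no cluster was gained or lost with the drug alone. The interval was that of an untreated change averaged over the strains, which could move in opposite directions. Untreated Adig, counted as gained with the drug alone, had 8.22 to 8.49 at day 7 and 7.52 to 7.71 at day 3 in C57BL/6J. In SV129 it had 7.67 to 8.15 at day 7 and 8.41 to 8.43 at day 3. Of the 2923 clusters higher with ROSI than in untreated cultures at day 7, 2486 (85%) were also higher than at day 3. Of the 2081 that were lower, 1222 (58.7%) were also lower than at day 3. The comparisons share arrays, so these shares describe the sorting and were not tested.

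**Figure D2:**
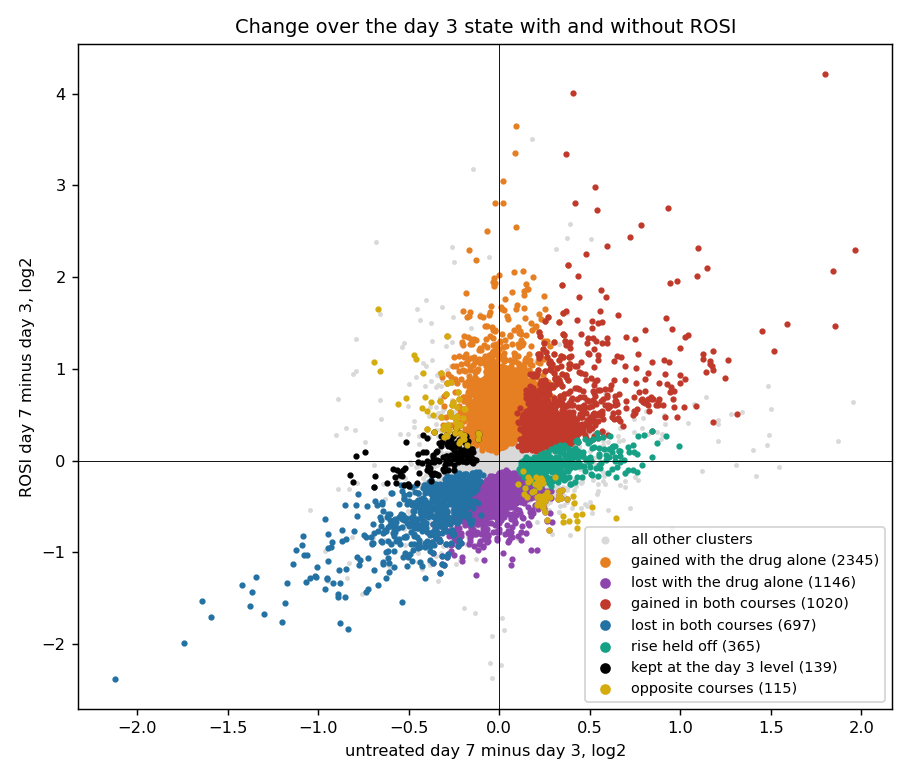
Change of every transcript cluster over the day 3 state, with ROSI day 7 minus day 3 on the vertical axis and untreated day 7 minus day 3 on the horizontal axis, both in log2 units. Colours give the course classes with their numbers of clusters (a cluster can meet more than 1 class, and the class drawn later covers the earlier), and both axes share the day 3 arrays. The 2345 clusters gained with the drug alone form the column above 0 on the horizontal axis.

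The lists of metabolic genes showed which machinery was gained. All 19 measured genes of fatty acid oxidation rose with ROSI against day 3, with a median change of 1.33, and 17 of them were gained with the drug alone. The untreated median of the same list was -0.07. All 21 genes of the tricarboxylic acid cycle (median 0.90), all 21 of the respiratory chain (0.78) and all 18 of the peroxisome (0.84) rose as well, against a median of 0.03 over all clusters. Of these, 20, 20 and 15 were gained with the drug alone. Every gene of these 4 lists was also called higher under quantile normalization and median centring. The mean signal of the oxidation list ran between 10.718 and 12.045 on the ROSI arrays, between 10.352 and 10.583 on untreated day 7 arrays and between 10.289 and 10.654 on day 3 arrays, and the highest day 3 array lay just below the lowest ROSI array.

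**Figure D3:**
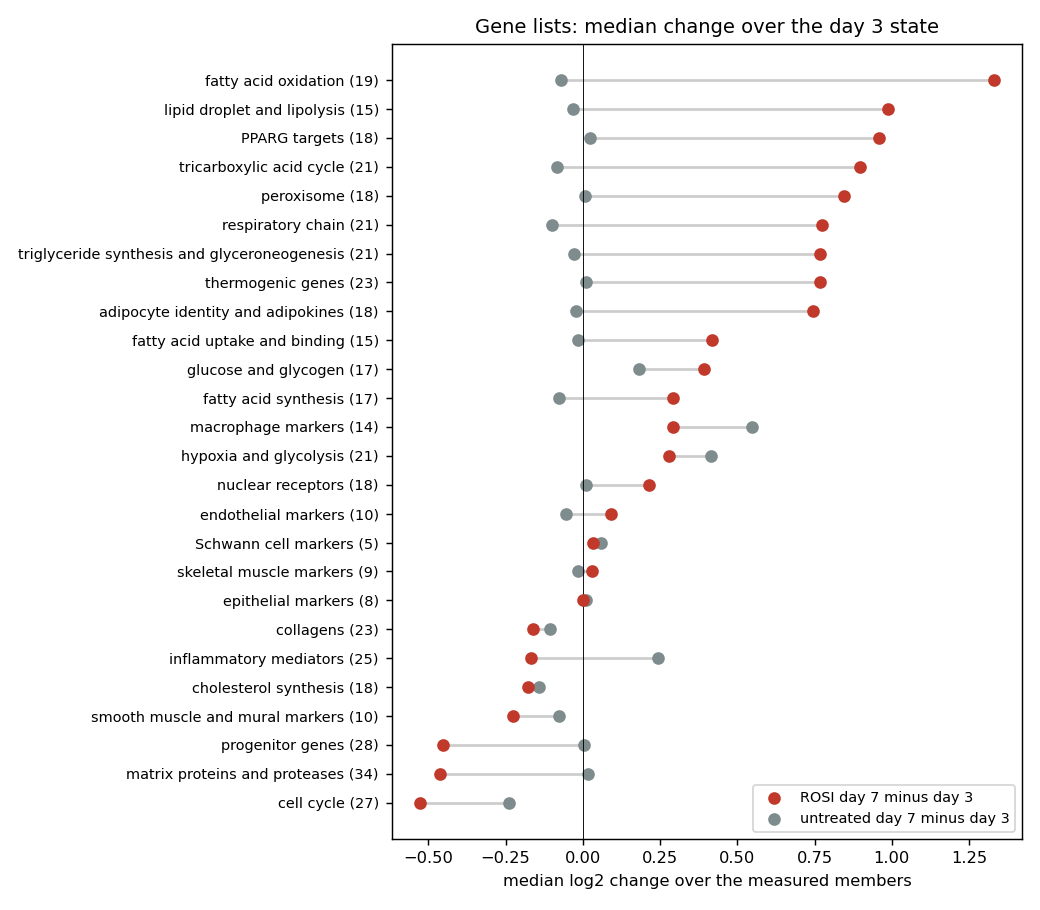
Median log2 change over the day 3 state for 26 gene lists, with the number of measured genes in brackets. Red points are ROSI day 7 minus day 3 and grey points untreated day 7 minus day 3, with no error shown because the spread is over different genes. The oxidation list stands highest with ROSI at 1.33 and the cell cycle list lowest at -0.53.

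Fabp3, a fatty acid-binding protein of heart and brown fat, showed the size of the gain. Its log2 signal had a lowest value of 8.58, a median of 12.60 and a highest of 12.88 with ROSI, against 8.33, 8.49 and 8.92 in untreated day 7 cultures and 8.02, 8.14 and 8.31 at day 3. The ROSI arrays all lay above day 3, but SV129 ROSI replicate 1 at 8.58 lay within the untreated day 7 range. The rise over day 3 was 4.01 ± 0.44 (SE; 16.1-fold, adjusted p = 2.24e-06), and the untreated rise was 0.41 (adjusted p = 0.00107). Without SV129 ROSI replicates 1 and 6 the rise was 4.54.

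Cox8b, a cytochrome c oxidase subunit of muscle and brown fat, had the largest rise among clusters that carried 1 gene symbol, and also rose without the drug. The signal was 10.35, 12.48 and 12.76 (lowest, median, highest) with ROSI, 9.05, 9.48 and 10.16 in untreated day 7 cultures and 7.17, 7.73 and 8.35 at day 3. The 3 groups did not overlap. ROSI cultures stood 4.21 ± 0.32 above day 3 (adjusted p = 6.36e-08) and untreated cultures 1.80 above it (adjusted p = 3.91e-06).

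Gys2, the liver form of glycogen synthase, had 9.64, 10.70 and 10.79 with ROSI against 6.48, 6.94 and 7.19 at day 3, a rise of 3.51 ± 0.18 (11.4-fold, adjusted p = 1.04e-09). Untreated day 7 cultures had 6.46, 7.12 and 7.68, a change of 0.18 (adjusted p = 0.486), but the interval of that change was too wide for Gys2 to enter the class gained with the drug alone. Gys2 was high on every ROSI array, including SV129 replicate 1. Elovl3, an elongase of very long fatty acids known from brown fat, rose by 3.35 ± 0.48 (adjusted p = 2.7e-05), with 6.16, 9.81 and 10.75 with ROSI against 5.68, 5.94 and 6.18 at day 3. Here the groups touched, because SV129 ROSI replicate 1 stood at 6.16 and replicate 6 at 7.35. Within SV129 alone its rise did not pass (adjusted p = 0.0532).

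SV129 ROSI replicate 1 thus lacked some gains and held others. It had 5.10 for Sptlc3, a subunit of the enzyme that starts sphingolipid synthesis, against 9.30, 9.60 and 9.87 on SV129 ROSI replicates 2, 3 and 4 and at most 5.07 at day 3. It had 9.95 for Cidec, which coats and fuses lipid droplets, above the highest day 3 value of 9.36. SV129 ROSI replicate 6 lay between replicate 1 and the others, at 7.27 for Sptlc3 and 11.44 for Cidec. The cause was not tested.

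Among the thermogenic genes, 13 of 23 rose (56.5%), 3 fell (13%) and the median change was 0.77. Over all clusters 22.8% rose and 13.3% fell, so the share that fell lay near that of all clusters. Nat8l, which makes N-acetylaspartate, rose by 2.80 ± 0.39 (adjusted p = 2.02e-05), and Otop1, a proton channel, by 2.80 ± 0.29 (adjusted p = 1.44e-06), with untreated changes of -0.02 and 0.02. Ppargc1a, a coactivator of mitochondrial genes, rose by 2.00 ± 0.32 (adjusted p = 6.83e-05), but within SV129 alone its rise did not pass (1.14, adjusted p = 0.0972). Chrna2, a nicotinic acetylcholine receptor subunit, rose by 2.73 ± 0.31 with ROSI and by 0.54 without it. Ucp1 had 6.45, 7.10 and 8.14 with ROSI, 5.94, 6.11 and 6.22 in untreated day 7 cultures and 5.87, 6.11 and 6.28 at day 3, a rise of 1.29 ± 0.15 (adjusted p = 4.55e-06). All day 3 values of Ucp1 and of Elovl3 lay under the lower quartile of all signals (6.44), so the size of these rises is uncertain. No ROSI array overlapped day 3, and SV129 ROSI replicate 1 at 7.10 was the highest of its strain for Ucp1. Cidea, which enlarges droplets in brown fat cells, stood 0.78 ± 0.14 higher with ROSI (adjusted p = 0.000157) at signals no higher than 6.11, also under that quartile. Bmp7, a growth factor that promotes brown fat, and Tmem26, a beige cell marker, fell by 0.94 and 0.55 with ROSI and by 0.93 and 0.47 without it. Dio2, which activates thyroid hormone, fell by 0.39 with ROSI. The values for Prdm16 (0.23) and Ebf2 (0.23), regulators of brown fat identity, did not pass. These 5 and the other list members given beyond the largest changes were chosen after their values were seen.

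Storage and release of fat were gained too. Of 18 PPARG target genes 16 rose (median 0.96), of 15 lipid droplet and lipolysis genes 11 (median 0.99), of 21 triglyceride synthesis genes 16 rose and 2 fell (median 0.77), and of 15 uptake genes 11 rose (median 0.42). The shares over all clusters were 22.8% higher and 13.3% lower. Cidec rose by 3.18 ± 0.30 (9.08-fold, adjusted p = 6.43e-07). Its signal was 9.95, 12.17 and 12.50 with ROSI, 7.73, 8.64 and 9.41 in untreated day 7 cultures and 8.18, 8.66 and 9.36 at day 3. Every ROSI array lay above both untreated groups, which overlapped only when the strains were pooled. C57BL/6J untreated day 7 arrays (8.71 to 9.41) lay above the day 3 arrays of that strain (8.18 to 8.41). SV129 untreated day 7 arrays (7.73 to 8.57) lay below the day 3 arrays of that strain (8.92 to 9.36). Pnpla2, the lipase that starts triglyceride breakdown, rose by 1.47 ± 0.16, Mgll, which completes it, by 1.46 ± 0.17, and Gpd1, which makes the glycerol backbone, by 1.94 ± 0.26. Aqp7, the glycerol channel, rose by 1.67 ± 0.28 (adjusted p = 9.86e-05). Pdk4, which shuts pyruvate out of oxidation, rose by 2.81 ± 0.25 with ROSI and by 0.42 without it (adjusted p = 3.63e-07 and 0.00351). Lpl, the lipase that frees fatty acids for uptake, changed by 0.09 only, although the call passed.

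Fatty acid synthesis was mixed, with 10 of 17 genes higher (58.8%) and 3 lower (17.6%). Over all clusters 22.8% were higher and 13.3% lower, so the lower share lay near that of all clusters. Acacb, which makes the malonyl-CoA that restrains mitochondrial fatty acid entry, rose by 2.13 ± 0.18 (adjusted p = 2.34e-07), and Thrsp, a regulator of lipid synthesis, by 2.42 ± 0.35 (adjusted p = 2.55e-05). In C57BL/6J Thrsp also rose without the drug, with 8.58 to 9.37 at day 7 and 7.43 to 7.58 at day 3. In SV129 untreated Thrsp had 7.42 to 8.64 at day 7 and 8.32 to 8.45 at day 3. Fasn rose by 0.53, while Elovl6, Fads2 and Elovl5 fell by 0.45, 0.23 and 0.21. Cholesterol synthesis leaned the other way, with 3 of 18 higher (16.7%) and 9 lower (50%). Untreated cultures also had 9 lower than day 3, and against untreated day 7 ROSI gave 5 higher and 5 lower. Insig1, the list member with the largest change, rose (adjusted p = 8.25e-05), though not within SV129 alone (0.46, adjusted p = 0.104). Mvk and Idi1 of the early pathway fell by 0.52 ± 0.05 and 0.47 ± 0.04 with ROSI, and by 0.41 and 0.31 without it.

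Classical fat cell genes rose as well. Adipoq, the adiponectin gene, had 12.53, 13.48 and 13.52 with ROSI against 11.86, 12.31 and 12.66 at day 3, a rise of 1.00 ± 0.16 (adjusted p = 6.79e-05). Its untreated day 7 arrays in C57BL/6J (12.31 to 12.77) lay above the day 3 arrays of that strain (11.86 to 12.04). In SV129 they (11.55 to 12.25) lay below the day 3 arrays (12.59 to 12.66). Fabp4, the fatty acid-binding protein of fat cells, rose by 0.95 ± 0.15 (adjusted p = 5.09e-05), and Slc2a4, the insulin-responsive glucose carrier, by 2.02 ± 0.25 (adjusted p = 6.76e-06). Untreated Slc2a4 had 8.19 to 8.65 at day 7 and 7.82 to 8.02 at day 3 in C57BL/6J. In SV129 it had 7.90 to 8.20 and 8.42 to 8.66. Untreated Fabp4 in SV129 had 11.04 to 11.72 and 12.10 to 12.29, and in C57BL/6J 11.64 to 12.05 and 11.65 to 11.78. Within SV129 alone the rises of Adipoq (0.50, adjusted p = 0.0799), Fabp4 (0.51, 0.073) and Slc2a4 (1.25, 0.0225) did not pass (limma). Of 18 identity genes 12 rose, with a median of 0.74. Lep, which marks mature white fat in the animal, had 4.89, 5.13 and 5.36 with ROSI and 5.06, 5.21 and 5.37 at day 3, all under the lower quartile of signals.

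The receptor of the drug did not pass the test. Pparg had 11.96, 12.12 and 12.18 with ROSI, 11.76, 11.86 and 11.98 in untreated day 7 cultures and 11.69, 11.97 and 12.22 at day 3. The change over day 3 was 0.14 ± 0.07 (95% interval -0.00 to 0.28, adjusted p = 0.103), and it passed with array weights (0.22, adjusted p = 0.00505). Among other nuclear receptors, Ppara, the fatty acid-sensing relative of PPARG, rose by 2.99 ± 0.32 with ROSI (7.92-fold, adjusted p = 2.05e-06) and by 0.53 without it. Rxrg, a retinoid X receptor, rose by 1.30 ± 0.28 (adjusted p = 0.000867). Within SV129 alone the rise of Rxrg did not pass (0.48, adjusted p = 0.355). SV129 ROSI replicate 1 stood at 8.57 for Rxrg, below the lowest SV129 day 3 value of 9.21. Pgr, the progesterone receptor, fell by 1.58 ± 0.14 with ROSI and by 1.38 without it.

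**Figure D4:**
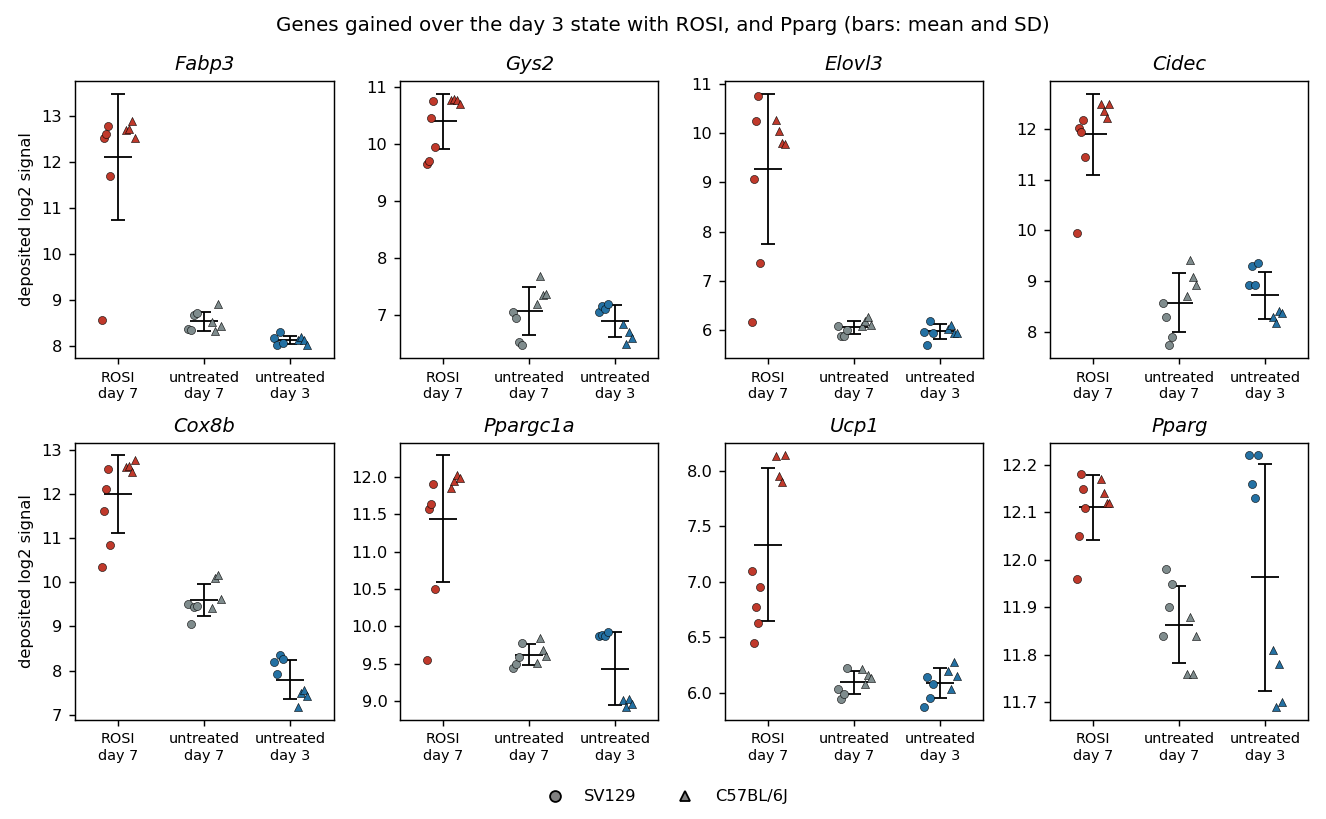
Deposited log2 signal of 8 genes on every array, with ROSI day 7 in red, untreated day 7 in grey and day 3 in blue. Circles are SV129, triangles C57BL/6J, and bars give the mean and SD of each group over both strains, with vertical axes that do not start at 0. The lowest ROSI circle of Fabp3 is SV129 replicate 1 at 8.58, and the day 3 values of Pparg reach 12.22, above every ROSI array.

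The PPARG:RXR pair binds a direct repeat of AGGTCA with 1 base between, so promoter windows of 300 bases (250 before to 50 after the RefSeq start, GRCm38.p6) were searched for that repeat (13 bases, the middle one free) on both strands, with up to 2 mismatches. A match was present in 5.10% of the 1764 genes gained with the drug alone that had a window, in 3.83% of all 12203 measured genes with one, in 3.07% of the 782 genes lost with the drug alone and in 3.86% of all windows. With up to 1 mismatch the order turned round, at 0.283% of the genes gained with the drug alone and 0.5% of all measured genes, and exact matches numbered 0 and 4. These shares are a description, and a match is not a bound site. Matches of 5 named genes that rose are shown with the stretch around each. Genes of 1 chromosome were left out of this display, so 5 is not a total. Of the 5, 3 (Aqp7, Slc25a20 and Cd36) encode carriers or receptors of the glycerol and fatty acid traffic gained with the drug. Capitals mark the 13 bases of each match, with its mismatches and free middle base included. Each sequence reads 5′ to 3′ on the strand of the gene. The match reads as the repeat itself in Slc25a20 and Ndufv1 and as its reverse complement in the other 3, and every match has 2 mismatches.
Aqp7, chr4:41048142-41048231, minus strand: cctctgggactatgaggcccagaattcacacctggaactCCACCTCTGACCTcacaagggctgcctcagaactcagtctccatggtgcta
Slc25a20, chr9:108662103-108662185, plus strand: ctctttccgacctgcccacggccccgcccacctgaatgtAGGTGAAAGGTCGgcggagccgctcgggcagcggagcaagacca
Cd36, chr5:17835909-17835998, minus strand: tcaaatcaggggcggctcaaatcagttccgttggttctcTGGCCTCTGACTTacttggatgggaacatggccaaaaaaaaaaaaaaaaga
Ndufv1, chr19:4012733-4012822, minus strand: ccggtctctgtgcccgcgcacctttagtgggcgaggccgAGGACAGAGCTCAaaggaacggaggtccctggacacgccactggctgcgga
A530053G22Rik, chr6:60403817-60403906, minus strand: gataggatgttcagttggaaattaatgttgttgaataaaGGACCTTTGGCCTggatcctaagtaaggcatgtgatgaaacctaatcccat
Aqp7 rose by 1.67 with ROSI, Slc25a20, the carnitine carrier of mitochondria, by 1.66, Cd36, the fatty acid receptor of the cell surface, by 1.08, Ndufv1, a subunit of complex I, by 1.14 and the transcript A530053G22Rik by 2.51. The untreated changes of these 5 lay between -0.32 and 0.14, and none passed the test. These were averages of strains that moved in opposite directions for some genes. Untreated Aqp7 had 10.50 to 10.64 at day 7 and 11.38 to 11.59 at day 3 in SV129. In C57BL/6J it had 10.45 to 10.83 and 10.29 to 10.50. Untreated Cd36 had 12.12 to 12.29 at day 7 and 12.35 to 12.45 at day 3 in SV129. In C57BL/6J it had 12.11 to 12.36 and 11.69 to 11.85.

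Another group of genes rose over day 3 whether or not the drug was present. Of the 1020 clusters gained in both courses, 725 showed no call between ROSI and untreated cultures at day 7, 278 were higher with ROSI and 17 lower. Hypoxia and glycolysis genes formed part of it: 16 of 21 rose with ROSI (median 0.28), 17 rose without it (median 0.41) and 14 were gained in both. Egln3, an oxygen-sensing prolyl hydroxylase, had 9.95, 10.18 and 10.82 with ROSI, 9.11, 9.89 and 10.94 in untreated day 7 cultures and 7.83, 7.97 and 8.1 at day 3. The rise was 2.30 ± 0.10 with ROSI (adjusted p = 2.19e-10) and 1.97 without it (adjusted p = 3.84e-06). Bnip3, a mitochondrial protein induced by low oxygen, rose by 1.08 with ROSI and by 0.93 without it, and Pdk1, an inhibitor of pyruvate oxidation, by 0.80 with ROSI and by 0.95 without it. Under quantile normalization and median centring 12 of the 21 rose with ROSI.

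Macrophage markers also rose in both courses. With ROSI 8 of 14 rose (median 0.29) and none fell, and all 8 were gained in both courses. Mrc1, a mannose receptor of macrophages, had 7.72, 9.01 and 9.19 with ROSI, 7.94, 8.36 and 8.98 in untreated day 7 cultures and 6.37, 6.59 and 6.75 at day 3, a rise of 2.07 ± 0.15 with ROSI (adjusted p = 5.94e-08) and 1.85 without it (adjusted p = 4.72e-09). Adgre1, a surface receptor that marks mouse macrophages, rose by 1.07 with ROSI and by 0.84 without it. The mean of the list ran between 7.79 and 8.3 on ROSI arrays, 7.985 and 8.303 on untreated day 7 arrays and 7.406 and 7.672 on day 3 arrays. Cd163, C1qa, C1qb, C1qc, Ptprc and Cd14 gave changes between -0.12 and 0.20 with ROSI that did not pass. The part of these cells in the other changes was not tested. Of 10 smooth muscle and mural markers 3 rose and 5 fell with ROSI (median -0.22), among them Cspg4, a pericyte proteoglycan, which rose by 0.98, and Abcc9, a channel subunit, and Acta2, smooth muscle actin, which fell by 1.08 and 0.90. Of 5 Schwann cell markers 2 rose and 2 fell. Of 10 endothelial markers 2 rose and 1 fell, of 9 skeletal muscle markers 0 rose and 1 fell, and of 8 epithelial markers none passed (limma). Over all clusters 22.8% rose and 13.3% fell with ROSI. The endothelial shares (20% and 10%) and the share of skeletal muscle markers that fell (11.1%) lay near these.

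Matrix and progenitor genes were among those lost. Of 34 matrix proteins and proteases 22 fell with ROSI against day 3 and none rose (median -0.46), where the untreated median was 0.02. Of these, 15 were lost with the drug alone and 4 in both courses. Of 23 collagens 11 fell. Of 28 progenitor genes 17 fell and 1 rose (median -0.45). Fap, a surface protease of activated fibroblasts, had 6.59, 7.24 and 8.26 with ROSI, 7.13, 7.85 and 8.36 in untreated day 7 cultures and 8.90, 9.08 and 9.17 at day 3. It fell by 1.68 ± 0.16 with ROSI (3.20-fold, adjusted p = 8.6e-07) and by 1.30 without it (adjusted p = 7.37e-06), and day 3 did not overlap with either.

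Of the 10 deepest falls among clusters with 1 gene symbol, 9 belonged to both courses. Cxcl13, a lymphocyte chemokine, fell by 2.38 ± 0.22 with ROSI (adjusted p = 4.45e-07) and by 2.12 without it (adjusted p = 0.000476). Aspn and Ogn, small leucine-rich matrix proteins, fell by 1.99 and 1.76 with ROSI and by 1.74 and 1.20 without it. Ngfr, the low-affinity neurotrophin receptor, fell by 1.70 with ROSI and by 1.59 without it, and Cd34, a progenitor surface marker, by 1.48 with ROSI and by 0.85 without it. Spon1, a matrix protein, fell by 1.84 with ROSI and by 0.84 without it, and was also lower with ROSI than in untreated day 7 cultures by 1.02 (adjusted p = 0.000238). For Sfrp2, a secreted WNT antagonist, the values overlapped, with SV129 ROSI replicate 6 at 12.12 and replicate 1 at 11.72 at the top of their group. The lowest, median and highest were 8.79, 9.99 and 12.12 with ROSI against 11.99, 12.23 and 12.40 at day 3, a fall of 1.78 ± 0.36 (adjusted p = 0.000527).

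Genes lost with the drug alone held near the day 3 level in untreated cultures, as an average of the strains. Gabra3, a GABA-A receptor subunit, had 8.78, 8.94 and 9.99 with ROSI, 10.02, 10.27 and 10.47 in untreated day 7 cultures and 10.25, 10.42 and 10.53 at day 3. It fell by 1.25 ± 0.13 with ROSI (adjusted p = 1.44e-06), against an untreated change of -0.13 (adjusted p = 0.195). Gabre, another subunit of that receptor, fell by 1.14 ± 0.15, and Tek, the angiopoietin receptor, by 0.89 ± 0.08 with an untreated change of 0.05. Col1a2, a chain of type I collagen, fell by 0.69 ± 0.12 (adjusted p = 0.000112), with -0.17 in untreated cultures. Akr1c18, which inactivates progesterone, was in no class because the interval of its untreated change (-0.14) was wider than the margin. It fell by 1.66 ± 0.27 with ROSI (adjusted p = 7.91e-05), by 0.92 in SV129 and by 2.48 in C57BL/6J.

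The cell cycle went down in both courses. Of 27 genes 18 fell with ROSI (median -0.53) and 14 of them were lost in both courses. Plk1, a mitotic kinase, had 8.87, 8.98 and 9.58 with ROSI, 8.97, 9.18 and 9.47 in untreated day 7 cultures and 9.76, 9.88 and 10.08 at day 3. It fell by 0.84 ± 0.08 with ROSI (adjusted p = 6.24e-07) and by 0.71 without it (adjusted p = 5.57e-06). Bub1, a spindle checkpoint kinase, fell by 0.81 with ROSI and by 0.36 without it, and was lower with ROSI than in untreated cultures by 0.46 (adjusted p = 0.00404). Cdkn1a, the cell cycle inhibitor p21, was the 1 gene of the list that rose, by 0.61.

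Few genes were simply kept. Of the 1005 clusters that untreated cultures lost, 196 were higher with ROSI than without it at day 7. Of these, 59 stood above day 3, 9 were still below it, and 128 showed no call against day 3. A cluster counted as kept at the day 3 level only if the 95% interval of ROSI minus day 3 lay inside 0.5 log2 of no change, which held for 139 clusters (0.774% of those tested). Their median change was 0.05 with ROSI, against -0.28 in untreated cultures. Of the 139, 26 were themselves called against day 3 with ROSI, by a change inside the margin. The size of the kept class depended on 2 arrays that stood apart in the principal components. Without SV129 untreated day 7 replicates 5 and 6 the class held 81 clusters, of which 74 were shared.

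Lipg, endothelial lipase, was the plainest case. It had 7.95, 8.34 and 8.49 with ROSI, 7.18, 7.37 and 7.93 in untreated day 7 cultures and 8.13, 8.25 and 8.44 at day 3. The change was 0.05 with ROSI, with a 95% interval of -0.10 to 0.20, and untreated cultures fell by 0.79 (adjusted p = 1.21e-05). Every untreated day 7 array lay below every ROSI and day 3 array. Without SV129 untreated day 7 replicates 5 and 6 the untreated fall was 0.72 (adjusted p = 9.48e-05).

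Of the collagens, Col15a1 had 10.12, 10.46 and 10.83 with ROSI, 8.94, 9.81 and 9.99 in untreated day 7 cultures and 10.17, 10.38 and 10.60 at day 3, a change of 0.09 with ROSI (95% interval -0.09 to 0.28), while it fell by 0.74 without the drug (adjusted p = 0.00171). Col6a2 changed by -0.16 with the drug and fell by 0.69 without it. Col6a1 and Col5a3 were also in the class, so 4 of 23 collagens were kept while 11 fell with ROSI. Scaling mattered for Col6a2, which passed as a fall of 0.26 and of 0.24 with ROSI under quantile normalization and median centring.

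Other kept genes were varied. Irf4, a transcription factor active in fat cells, changed by -0.24 with the drug and fell by 0.57 without it (adjusted p = 4.18e-05). Under median centring Irf4 passed as a fall with ROSI (-0.31, adjusted p = 0.00589). Btg2, which restrains proliferation, changed by -0.09 with the drug and fell by 0.59 without it, and Nnat, an imprinted membrane protein gene, changed by -0.12 with it and fell by 0.55 without it. Csrp2, a LIM-domain protein, lay inside the margin but was itself lower than day 3 with ROSI by 0.29 (adjusted p = 0.00115), and it also counted as lost in both courses. Fmo1, a flavin monooxygenase, and Gamt, the last enzyme of creatine synthesis, changed by -0.16 and -0.23 with the drug and fell by 0.83 and 0.81 without it. Both left the class without those 2 arrays, where the difference between ROSI and untreated cultures was 0.42 (adjusted p = 0.0381) for Fmo1 and 0.37 (adjusted p = 0.0506) for Gamt. Gamt also left it without SV129 ROSI replicates 1 and 6 (0.49, adjusted p = 0.0222). Slc43a1, an amino acid carrier, left it as well (0.27, adjusted p = 0.0453). Irs1 and Pik3r1 of insulin signalling and Acly, Dhcr7, Ebp and Hmgcs1 of lipid synthesis were the other list members kept, besides Esr1.

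The kept level was an average of strains in part. In 64 of the 139 kept clusters the strains changed in opposite directions, with a median of -0.04 in SV129 and 0.16 in C57BL/6J. The mean change of each strain lay within 0.5 in 134 of the 139, which is a looser rule than the interval. Sorted on its own, SV129 kept 0 clusters and C57BL/6J kept 35. Nnat changed by -0.47 in SV129 and by 0.27 in C57BL/6J, and the rise passed within C57BL/6J (adjusted p = 0.00546).

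**Figure D5:**
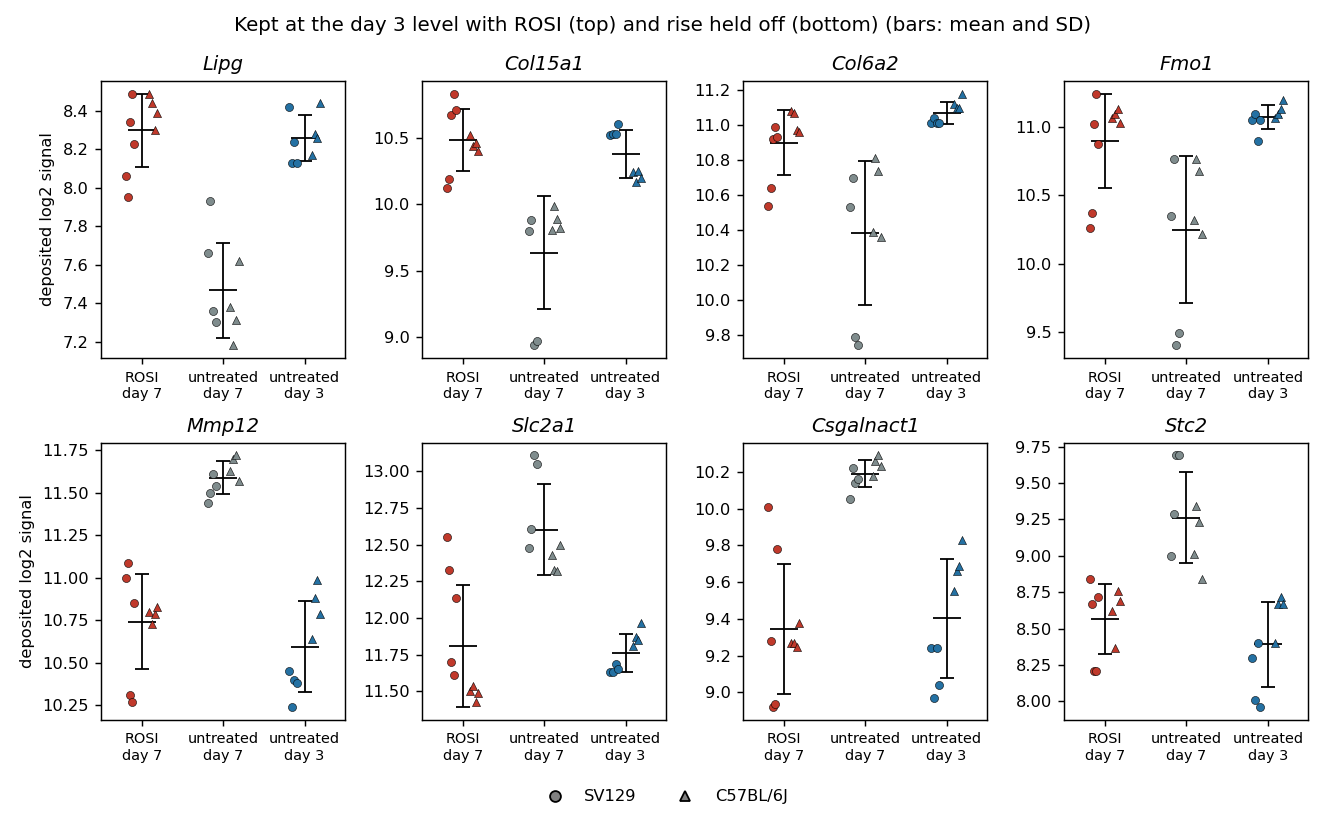
Deposited log2 signal on every array for 4 genes kept at the day 3 level (top) and 4 whose rise was held off (bottom), with ROSI day 7 in red, untreated day 7 in grey and day 3 in blue. Circles are SV129, triangles C57BL/6J, bars the mean and SD of each group over both strains, and vertical axes do not start at 0. The 2 lowest grey circles of Col15a1, Col6a2 and Fmo1 are SV129 replicates 5 and 6, and no untreated array of Lipg or Mmp12 overlaps the other groups.

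More genes had their rise held off than their level kept. Of 1740 clusters that rose in untreated cultures, 452 were lower with ROSI at day 7, and 365 (2.03% of those tested) stayed inside the margin around day 3. Their median change was -0.03 with ROSI, against 0.29 without it. Of the 365, 29 were themselves called against day 3 with ROSI, by a change inside the margin. The strains changed in opposite directions with ROSI in 228 of the 365, with a median of 0.07 in SV129 and -0.14 in C57BL/6J. Without SV129 untreated day 7 replicates 5 and 6 the class held 193 clusters, of which 179 were shared. Mmp12, the macrophage metalloelastase, had 10.27, 10.80 and 11.09 with ROSI, 11.44, 11.59 and 11.72 in untreated day 7 cultures and 10.24, 10.55 and 10.99 at day 3. It changed by 0.16 with the drug (95% interval -0.07 to 0.39) and rose by 0.99 without it (adjusted p = 1.98e-08). The untreated values stood apart from both other groups.

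Slc2a1, the basal glucose carrier, changed by 0.04 with the drug and rose by 0.84 without it (adjusted p = 3.57e-05). In C57BL/6J it fell by 0.39 with ROSI (adjusted p = 8.09e-05 within that strain), and in SV129 it changed by 0.42. Stc2, a secreted glycoprotein of the stress response, changed by 0.19 with the drug and rose by 0.87 without it, and Csgalnact1, which starts chondroitin sulfate chains, changed by -0.05 with it and rose by 0.79 without it. Srgap3, a regulator of RAC signalling, changed by -0.12 with ROSI and rose by 0.76 without it. Within C57BL/6J both fell with ROSI, Csgalnact1 by 0.39 (adjusted p = 0.000396) and Srgap3 by 0.49 (adjusted p = 0.000108). Without SV129 ROSI replicates 1 and 6, Csgalnact1 fell by 0.24 (adjusted p = 0.00937), and Srgap3 left the class (-0.26, adjusted p = 0.121). Ccnd1 (0.92 without the drug), Esd (0.80) and Havcr2 (0.85) left the class without SV129 untreated day 7 replicates 5 and 6. Havcr2 also rose with ROSI by 0.32 (adjusted p = 0.00412), within the margin. Ndrg1 and Pkm of the hypoxia and glycolysis list also met the class, and Pkm, whose rise with ROSI was 0.15 (adjusted p = 0.00799), counted as gained in both courses too.

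In 115 clusters (0.640%) the courses ran in opposite directions, 59 of them upward with ROSI (0.329%) and 56 downward (0.312%). Ppp1r1a, an inhibitor of protein phosphatase 1, had 7.09, 10.27 and 10.58 with ROSI, 6.75, 7.42 and 7.69 in untreated day 7 cultures and 7.52, 8.00 and 8.67 at day 3. It rose by 1.65 ± 0.45 with ROSI (adjusted p = 0.00545) and fell by 0.67 without it (adjusted p = 0.00872). SV129 ROSI replicates 1 and 6, at 7.09 and 7.92, did not show the rise. The rise of Ppp1r1a no longer passed on leaving out any 1 of 10 single arrays, namely C57BL/6J ROSI replicates 2, 3, 4 and 6, SV129 ROSI replicates 3 and 4 and C57BL/6J day 3 replicates 2, 3, 4 and 6 (adjusted p between 0.0113 and 0.0128), and its untreated fall did not pass in 1 model over 25 arrays (adjusted p = 0.273). Itih5, a stabilizer of hyaluronan, rose by 1.07 with ROSI and fell by 0.69 without it. Rnf125, a ubiquitin ligase, rose by 0.97 with ROSI and fell by 0.66 without it. Within SV129 alone neither rise passed (0.50, adjusted p = 0.459 for Itih5, and 0.49, adjusted p = 0.236 for Rnf125). Acaa2, the last enzyme of mitochondrial oxidation, rose by 1.35 with ROSI and fell by 0.29 without it. The class was unstable, holding 69 clusters without SV129 untreated day 7 replicates 5 and 6 and 195 without SV129 ROSI replicate 1. The untreated falls of Ppp1r1a, Acaa2, Cavin2 and Mgst3 did not pass without replicates 5 and 6 (adjusted p between 0.0264 and 0.0506), while those of Itih5 and Rnf125 did.

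The course with the drug differed between the strains in 29 clusters (0.161%; limma interaction of group and strain), of which 5 changed more upward in SV129. At an unadjusted p under 0.05 there were 3442. Pck1, the rate-limiting enzyme of glyceroneogenesis, had 6.77 to 7.00 in SV129 and 7.80 to 8.35 in C57BL/6J with ROSI, against 6.63 to 6.79 in SV129 and 6.77 to 6.81 in C57BL/6J at day 3. Its rise was 0.17 in SV129 and 1.37 in C57BL/6J, a difference of -1.21 ± 0.12 (adjusted p = 0.000579). Ucp1 rose by 0.77 in SV129 and by 1.86 in C57BL/6J, a difference of -1.10 ± 0.16 (adjusted p = 0.00466). The day 3 values of Ucp1 were 5.87 to 6.14 in SV129 and 6.03 to 6.28 in C57BL/6J, so the strains overlapped there.

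For Gpd1 and Pparg the strains did not overlap at day 3. Gpd1 averaged 12.60 ± 0.56 in SV129 and 13.23 ± 0.09 in C57BL/6J with ROSI (SD, n = 5 and 4), against 11.55 ± 0.09 in SV129 and 10.31 ± 0.13 in C57BL/6J at day 3 (SD, n = 4 each). The difference of the rises was -1.86 ± 0.29 (adjusted p = 0.00595). Pparg likewise averaged 12.09 ± 0.09 in SV129 and 12.14 ± 0.02 in C57BL/6J with ROSI, against 12.18 ± 0.05 in SV129 and 11.75 ± 0.06 in C57BL/6J at day 3, and changed by -0.09 in SV129 and by 0.39 in C57BL/6J (difference -0.48 ± 0.07, adjusted p = 0.00498). Without SV129 ROSI replicates 1 and 6 the strain difference passed in 286 clusters, among them all 29. The count ran between 2 and 333 when single arrays were left out, so the number rests on individual arrays.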

How the data were processed

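RNA of the cultures was hybridised to Mouse Exon 1.0 ST arrays. The authors summarised probes to transcript clusters with Affymetrix Power Tools and RMA (versions not given in the sources used here), and the deposited log2 values were used without further scaling. Array number, not read depth, limits the precision. Each of the 3 comparisons had its own limma model (limma 3.58.1, R 4.3.3) of group and strain over all 17958 clusters, with Benjamini-Hochberg adjustment and a threshold of 0.01. Models were first tested on simulated data. Course classes used 95% intervals and a margin of 0.5 log2, and a cluster can meet more than 1 class. Symbols came from the platform annotation, where 1370 clusters had several and 967 none. The text names the largest changes of each comparison and class, up to 3 members of each of 27 gene lists (475 of 551 entries measured) and 7 genes in any case. The comparison, members and lists were chosen with earlier results of these data known. The alternatives covered scaling, filters, thresholds, models, strains and left-out arrays. The 10 norepinephrine arrays entered only the model over all 35 arrays.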

Additional observations from a re-analysis of the deposited data

Results flagged for a closer look

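In 33 of 726 sets of arrays examined (1 gene in 1 group and strain, 4.55%), the highest or lowest array stood further from its neighbours than Dixon's 95% limit, where chance gives about 1 in 20. The values are log2 signals. Of the ROSI arrays, C57BL/6J replicate 6 stood apart for Myl1 (8.90), Ndufv1 (11.93), Negr1 (10.26), Laptm5 (10.70), Pex11a (11.06) and Csgalnact1 (9.38), and C57BL/6J replicate 4 for Cd36 (13.43). SV129 ROSI replicate 2 stood apart for Ogn (9.48), Col14a1 (6.87), Cxcl13 (6.82) and Abcc9 (8.15), replicate 1 for Fabp3 (8.58) and replicate 6 for Btg2 (10.13). Of the untreated day 7 arrays, SV129 replicate 4 stood apart for Akr1c18 (10.73), Cidea (4.76), Cox8b (9.05) and Ccnb2 (10.30), replicate 5 for Ces1d (6.84) and replicate 1 for Gabra3 (10.19). Of the day 3 arrays, SV129 replicate 6 stood apart for Rxrg (9.43), Mgst3 (8.99), Ppara (8.22), Gbe1 (10.06), Ppargc1a (9.93) and Eif2s3y (9.99), and SV129 replicate 1 for Ccnd1 (10.08). C57BL/6J day 3 replicate 4 stood apart for Irf4 (6.98), Decr1 (9.47) and Eif2s3y (9.50), replicate 2 for Insig1 (11.93) and Gabre (9.21), replicate 3 for Ms4a4d (11.85) and replicate 6 for Npr3 (9.19).

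The change with ROSI over day 3 differed between strains by the limma interaction, and the 6 genes with the smallest adjusted p are given here, beside Ucp1, Gpd1 and Pparg of the report. SV129 minus C57BL/6J was -1.21 for Pck1, -0.89 for Npr3, -0.59 for Lpgat1, -0.61 for Glul, -1.22 for Myl1 and -0.99 for Pfkfb3. Npr3, a clearance receptor for natriuretic peptides, changed by -0.46 in SV129 and by 0.43 in C57BL/6J (adjusted p = 0.00151 for the difference).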

How the results depend on the processing

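Counts follow as numbers of clusters. At an adjusted p under 0.05, untreated day 7 differed from day 3 in 4554, 1720 were gained in both courses, 312 kept, 736 held off, 1096 lost in both, 414 opposite and 316 different between strains. With a minimum change of 1.5-fold, 1101 were higher and 502 lower with ROSI than at day 3, 318 differed between untreated day 7 and day 3 and 1300 between ROSI and untreated day 7, and the classes held 684 gained with the drug alone, 95 gained in both, 4 kept, 23 held off, 120 lost with the drug alone, 88 lost in both and 4 opposite. One model over 25 arrays gave 36 opposite and 134 different between strains, and over 35 arrays 64 and 338. Array weights gave 1877 lost with the drug alone, 240 opposite and 516 different between strains. Quantile normalization gave 3629 lower with ROSI, 1949 lost with the drug alone, 177 opposite and 49 different between strains, and median centring 3630 lower, 664 gained in both, 1853 lost with the drug alone and 65 different between strains. Leaving out the dimmest clusters gave 45 different between strains. Without SV129 ROSI replicates 1 and 6, 1754 were lost with the drug alone, 251 opposite and 286 different between strains. SV129 alone gave 191 higher and 151 lower with ROSI than at day 3, 1 called between ROSI and untreated day 7, 0 gained or lost with the drug alone, 0 kept, 0 held off, 104 gained in both, 65 lost in both and 4 opposite. C57BL/6J alone gave 1140 called between untreated day 7 and day 3, 468 gained in both, 35 kept, 77 held off, 445 lost in both and 62 opposite. An interval within 0.3 kept 91. Chosen after seeing the data, leaving out SV129 untreated day 7 replicates 5 and 6 gave 81 kept, 193 held off and 69 opposite. Settings of 1 strain or with arrays left out fitted fewer arrays, and for the others the cause was not tested.

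Leaving out single arrays gave 3725 to 4524 higher and 2147 to 2696 lower with ROSI than at day 3, 2230 to 2865 called between untreated day 7 and day 3, and 4427 to 5667 between ROSI and untreated day 7. The classes ran between 2076 and 2830 gained with the drug alone, 814 and 1109 gained in both, 98 and 148 kept, 260 and 400 held off, 944 and 1464 lost with the drug alone, 570 and 831 lost in both, 66 and 195 opposite, and 2 and 333 different between strains. The opposite class fell to 71, 73, 66 and 68 without SV129 day 3 replicates 1, 3, 5 and 6, and to 76 without C57BL/6J day 3 replicate 4, and was 195 without SV129 ROSI replicate 1. The strain difference was at most 13 without any 1 of SV129 day 3 replicates 1, 3, 5 and 6, C57BL/6J day 3 replicates 2, 3, 4 and 6 or C57BL/6J ROSI replicates 2, 3, 4 and 6, and was 191, 159 and 333 without SV129 ROSI replicates 1, 2 and 4. In C57BL/6J alone 3 named genes took the other sign with ROSI, at 0.43 for Npr3, 0.27 for Nnat and -0.39 for Slc2a1. Of 145 results of named genes, called or not, 78 lost their call in SV129 alone, and none reversed without any single array. Replicate numbers did not pair the samples (correlations between -0.141 and 0.145 over 7 pairs, 1 over 0.1), and a replicate block gave 3906 higher and 2249 lower with ROSI.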

Other observations

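Some list members rose in untreated cultures while their ROSI values spread too widely around day 3 to enter a class. They were chosen after their values were seen. Lcn2, lipocalin 2, had 10.30, 11.86 and 13.18 (lowest, median, highest) with ROSI, 12.05, 13.03 and 13.31 in untreated day 7 cultures and 10.75, 10.90 and 11.05 at day 3. It rose by 1.95 without the drug (adjusted p = 3.25e-07, limma), and the change with ROSI was 0.63 (adjusted p = 0.0642). Il6, an inflammatory cytokine, had 6.84, 7.47 and 9.07 with ROSI, 8.54, 8.77 and 9.10 in untreated day 7 cultures and 7.02, 7.78 and 8.25 at day 3, with changes of -0.12 with ROSI and 1.12 without it. Grem1, a BMP antagonist, gave 0.22 with ROSI and 1.87 without it, Slc16a3, a lactate exporter, 0.27 with ROSI and 1.49 without it, and Mmp13, a collagenase, 0.21 with ROSI and 1.21 without it. All 5 were lower with ROSI than in untreated day 7 cultures (adjusted p between 0.000109 and 0.00145).

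Among clusters without a gene symbol, 6 shared a pattern. Cluster 6922107 had 6.81 to 8.32 on the C57BL/6J ROSI arrays and 8.28 on SV129 ROSI replicate 2, against values up to 12.79 on the other 4 SV129 ROSI arrays, all of them above 11.72 (the lowest day 3 value), and against 10.37 to 10.61 on SV129 untreated day 7 replicates 5 and 6, 11.81 to 12.6 on the other untreated day 7 arrays and 11.72 to 12.06 at day 3. Cluster 6913928 had 7.37 to 9.1 on the C57BL/6J ROSI arrays and 9.34 on SV129 ROSI replicate 2, against 12.68 to 13.26 on the other SV129 ROSI arrays and 12.43 to 12.7 at day 3. Of the 6 clusters, 2 passed the test of ROSI against day 3 (limma, adjusted p between 0.00893 and 0.0179 over all 6). The cause was not tested.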
